A study of Mus musculus with 56 samples.

Results

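T cell receptors with a beta chain from TRBV1, TRBV5, TRBV19, TRBV29 or TRBV31 were described in mouse liver tumours, with their use by genotype, their clone sizes, their paired alpha chains and the contigs of these genes not flagged as productive. The cells were chosen by the V gene of the productive, high-confidence TRB (beta chain) contig with the most UMIs in each barcode called a cell, so the V gene of a cell is not itself a result. The rule names the share of T cells and of clonotypes by genotype label, so those are given as descriptions. These 5 of the 22 TRBV entries in the files were carried by 1597 of 7605 T cells, namely 366 cells with TRBV1, 298 with TRBV5, 431 with TRBV19, 284 with TRBV29 and 218 with TRBV31.

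Each library came from dissected tumour nodules, and each animal had tumours with MYC. In luc tumours MYC came with luciferase alone, and in lucOS tumours with a luciferase that also bears model antigens for T cells. NICD is the active intracellular part of NOTCH1, and sgp53 is a guide RNA that targets the p53 tumour suppressor gene. The females were 3 luc NICD, 3 luc sgp53, 3 lucOS NICD and 3 lucOS sgp53 animals, and the 2 males were lucOS NICD; there was no male luc or male sgp53 group. The lucOS sgp53 replicates 3 and 4 were libraries of 1 animal and count as 1 of the 14 animals. Immune cells were separated by CD45 and mixed back with the other cells in equal numbers, so T cells per tumour cannot be read from these libraries. A library held 49 to 1282 T cells, with 49 to 432 in female NICD libraries and 402 to 1282 in sgp53 libraries, and the median TRB contig of a library rested on 6 to 14 UMIs. Of 7566 distinct barcodes, 39 occurred in more than 1 library, and 1 of these carried the same TRB clonotype in both.

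A beta chain is assembled in the thymus from a V, a D and a J segment, and the join forms the CDR3 loop that meets the peptide. Cells that share V gene, J gene and CDR3 nucleotides within an animal are counted here as 1 clonotype and are usually descendants of 1 cell. In the mouse locus, Trbv1 lies far upstream of the other V segments, and Trbv31 lies downstream of the constant regions in inverted orientation and joins by inversion. Some classes of T cell have near-invariant alpha chains: invariant natural killer T cells, which see lipids, use TRAV11-TRAJ18, and mucosal-associated invariant T (MAIT) cells, which see vitamin B metabolites, use TRAV1-TRAJ33. In mice the former mostly use TRBV13, TRBV29 and TRBV1 beta chains, and the latter TRBV19 and TRBV13.

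The RefSeq annotation of GRCm38.p6 places all 5 on chromosome 6, at chr6:40891296-40891885 for Trbv1, chr6:41062359-41062803 for Trbv5, chr6:41178589-41179048 for Trbv19, chr6:41271403-41271881 for Trbv29 and chr6:41557693-41558371 for Trbv31. Trbv1 ends 155671 bases before Trbv2, and Trbv31 starts 9512 bases beyond the end of the constant region gene Trbc2. RefSeq lists Trbv29 as a V segment pseudogene, 1 of 13 among 35 Trbv segments, although 222 productive clonotypes carried it here.

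The CDR3 of the largest clone of each gene is printed 5′ to 3′, since these clones move the shares described further on. The first 12 bases, in capitals, mark the start that most clonotypes of that gene share.
TRBV1, 25 cells in lucOS sgp53 replicate 2: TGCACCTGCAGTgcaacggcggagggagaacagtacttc
TRBV5, 8 cells in male lucOS NICD replicate 1: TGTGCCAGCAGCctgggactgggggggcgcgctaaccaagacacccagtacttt
TRBV19, 28 cells in male lucOS NICD replicate 1: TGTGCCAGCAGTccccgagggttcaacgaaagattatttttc
TRBV29, 25 cells in lucOS sgp53 replicates 3 and 4: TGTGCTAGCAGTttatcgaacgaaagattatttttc
TRBV31, 11 cells in lucOS sgp53 replicates 3 and 4: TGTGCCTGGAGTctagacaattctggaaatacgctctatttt
The capital start was held by 92.8% of TRBV1, 98.4% of TRBV5, 73.6% of TRBV19, 75.2% of TRBV29 and 61.3% of TRBV31 clonotypes. The remaining clonotypes differed from it within those bases, where trimming at the join can reach.

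TRBV19 was the most used of the 5 genes, at 7.42% ± 5.22 of T cells (mean ± SD, n = 14 animals), rank 3 of the 20 TRBV entries that averaged at least 1% of T cells. TRBV1 followed at 5.44% ± 3.07, TRBV5 at 4.54% ± 1.57, TRBV29 at 3.86% ± 2.26 and TRBV31 at 3.25% ± 1.96. Every difference between neighbours in that order was smaller than its own SD over animals; TRBV19 exceeded TRBV1 in 8 of 14 animals, and TRBV5 exceeded TRBV29 in 10 of 14. Counted by clonotype, the mean shares were 7.64% for TRBV19, 6.37% for TRBV1, 5.33% for TRBV5, 4.83% for TRBV29 and 3.81% for TRBV31, all above the shares of T cells.

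TRBV5 made up a smaller part of the T cells in lucOS than in luc tumours of females, on either tumour driver. Its share in luc NICD replicates 1 to 3 was 5.24%, 7.79% and 6.12%, and in lucOS NICD replicates 4.40%, 4.64% and 2.24%. In luc sgp53 replicates it was 5.22%, 4.17% and 6.08%, and in the lucOS sgp53 animals 3.74%, 2.42% and 2.30%. The luc and lucOS animals did not overlap within NICD or within sgp53, while over both drivers the lowest luc value, 4.17%, lay below the highest lucOS value, 4.64%. Of the 20 TRBV entries, 2 (10%), TRBV5 and TRBV13-2, were apart in the same direction on both drivers. The entry TRBV13-2 averaged only 1.49% of T cells. A separate entry naming both TRBV12-2 and TRBV13-2 averaged 15.8%, and its mean was higher in lucOS, at 21.1% against 8.42% in luc females. The means were 5.77% ± 1.22 in luc and 3.29% ± 1.10 in lucOS (SD, n = 6 each), a difference of -2.48 percentage points. By clonotype the difference was -1.78 points, from 6.23% to 4.45%, and with TRB contigs of at least 3 UMIs it was -0.999 points. The 2 lucOS NICD males, at 4.67% and 4.58%, lay close to the highest lucOS NICD female.

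TRBV1 had a lower mean in lucOS females as well, but over both drivers the groups overlapped. Within NICD they overlapped, and within sgp53 they did not, as was so for 7 of the 20 entries. Its share was 9.44%, 2.60% and 12.2% in luc NICD, 6.47%, 5.84% and 9.12% in luc sgp53, 4.63%, 3.31% and 4.85% in lucOS NICD and 4.84%, 5.68% and 2.14% in lucOS sgp53 animals. The luc NICD library with the lowest value, replicate 2, held 2 TRBV1 cells among 77, with a 95% Wilson interval of 0.715% to 8.98%. The means were 7.62% ± 3.37 in luc and 4.24% ± 1.28 in lucOS, and the male values were 1.26% and 3.79%.

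TRBV19 varied most. Its share was 6.64%, 5.19% and 22.4% in luc NICD, 4.98%, 6.84% and 6.80% in luc sgp53, 5.79%, 13.2% and 2.99% in lucOS NICD and 3.67%, 2.17% and 4.30% in lucOS sgp53 animals. The 22.4% came from the smallest library, where 11 of 49 T cells carried TRBV19 and 7 of those were 1 clone; its Wilson interval ran from 13.03% to 35.9%. The 13.2% came from 20 cells of 19 clonotypes among 151 T cells, of which 5 had a MAIT alpha chain. Means were 8.82% ± 6.73 in luc and 5.36% ± 4.05 in lucOS, and by clonotype 7.47% and 7.59%. In shares of T cells, luc and lucOS animals overlapped within NICD but not within sgp53, where TRBV19 was 1 of 7 such entries among 20. Both males had shares of TRBV19 near each other, 9.52% and 9.32%.

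TRBV29 ranged over luc females from 2.60% through a median of 4.11% to 10.2%, and over lucOS females from 1.32% through 2.73% to 5.77%. The highest luc value was 5 of 49 cells. TRBV31 ranged over luc females from 2.17% through 3.56% to 9.09%, the highest being 7 of 77 cells, and over lucOS females from 1.32% through 3.10% to 3.82%. Over both drivers, both genes overlapped between luc and lucOS. Within NICD, TRBV31 did not overlap in share of T cells, as was so for 6 of the 20 entries, and within sgp53 it did. By clonotype, TRBV31 was at 4.85%, 9.09% and 4.76% in luc NICD animals, which lay above all 3 luc sgp53 animals at 2.96%, 2.42% and 3.31%, with lucOS NICD animals at 3.50%, 1.54% and 3.66%. Of the 20 entries, 6 had no overlap between luc NICD and luc sgp53 animals by clonotype.

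**Figure D1:**
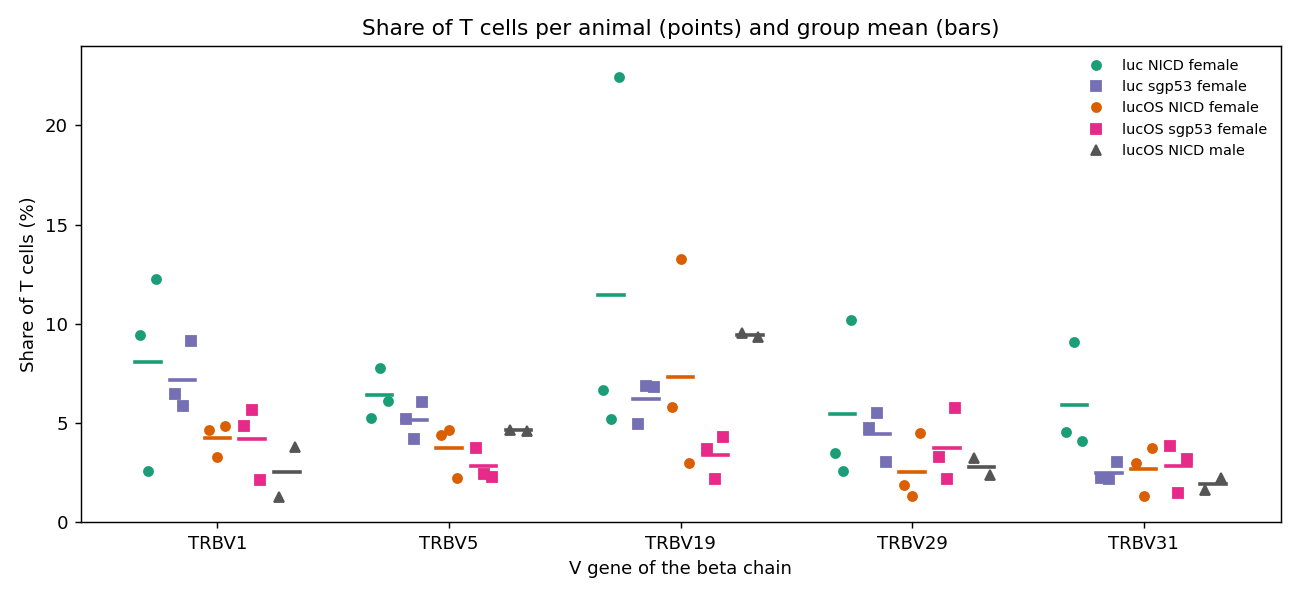
Share of T cells (percent) carrying each of the 5 V genes, with 1 point per animal and a bar at the group mean; circles are NICD females, squares sgp53 females and triangles NICD males. TRBV5 is lower in lucOS than in luc on each driver, and the highest TRBV19 point is luc NICD replicate 3 at 22.4%.

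Added up, the 5 genes made up 23.6% to 55.1% of T cells in luc females, with a median of 27.7%, and 13.9% to 23.8% in lucOS females, with a median of 18.8%. By clonotype the sums were 27.3% to 50.0%, median 28.2%, against 23.2% to 27.4%, median 25.1%. The shares of a library add up to a fixed total. The entry naming both TRBV12-2 and TRBV13-2 averaged 8.42% of T cells in luc and 21.1% in lucOS females. How far that entry moved the shares of the 5 genes was not tested. The exact permutation tests over the 12 females, run for 20 TRBV entries with labels permuted within driver or within construct, called 0 (0%) for lucOS against luc in shares of T cells and 0 (0%) in shares of clonotypes at a Benjamini-Hochberg adjusted p under 0.05. At an unadjusted p under 0.05 they called 4 and 2 entries, and nothing is read from these for the 5 genes, since the rule names these shares. With 400 arrangements the smallest p is 0.005, and an entry alone at that value cannot go below an adjusted p of 0.1. With 2 entries alone at it, these permutation tests give an adjusted p of 0.05, which is not under the threshold. A count of 0 called thus does not show that the shares were alike.

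Between drivers, the ranges of NICD and sgp53 females overlapped for each of the 5 genes over both constructs. TRBV19 averaged 9.38% ± 7.27 in NICD and 4.79% ± 1.82 in sgp53 females, with ranges of 2.99% to 22.4% and 2.17% to 6.84%. TRBV31 averaged 4.30% ± 2.60 and 2.65% ± 0.855, TRBV5 5.07% ± 1.85 and 3.99% ± 1.503, TRBV1 6.18% ± 3.81 and 5.68% ± 2.27, and TRBV29 3.99% ± 3.25 and 4.08% ± 1.46. The TRBV19 difference of 4.59 points was 1.84 points without luc NICD replicate 3, and the lucOS minus luc difference of -3.46 points was then -0.703 points. Within luc tumours TRBV31 did not overlap, at 4.55%, 9.09% and 4.08% in NICD and 2.24%, 2.17% and 3.04% in sgp53 animals. Within lucOS tumours it overlapped, at 3.01%, 1.32% and 3.73% against 3.82%, 1.45% and 3.19%. Of the 20 entries, 5 did not overlap within luc, 2 within lucOS and 0 in both. The permutation tests called 0 of 20 entries (0%) in shares of T cells and 0 (0%) in shares of clonotypes, with 1 and 4 entries at an unadjusted p under 0.05. Driver and library size moved together, since NICD libraries held fewer T cells, and the part of size in these values was not tested.

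Within an animal, TRBV1, TRBV5, TRBV29 and TRBV31 took a smaller share of T cells than of clonotypes. The mean gap was -0.932 ± 1.10 points for TRBV1 (lower in 10 of 14 animals), -0.783 ± 0.664 for TRBV5 (12 of 14), -0.966 ± 1.31 for TRBV29 (12 of 14) and -0.556 ± 0.546 for TRBV31 (11 of 14). TRBV19 had a gap of -0.213 ± 3.42, with 9 animals lower and 4 higher. In lucOS females TRBV19 was lower in 6 of 6 animals, by 1.27 to 3.54 points, whereas in luc NICD replicate 3, without which the mean gap was -1.04 points, it was higher by 10.5 points and in the 2 males by 0.187 and 2.16 points. The gap of TRBV5 was -0.462 ± 0.359 in luc and -1.16 ± 0.397 in lucOS females, and that of TRBV1 -0.407 ± 1.13 and -1.29 ± 1.14. Of the 20 TRBV entries, 8 (40%) passed an adjusted p under 0.05 in the sign-flip test of this gap, 4 of the 5 genes among them, and nothing more is read from that count because the rule names this measure. TRBV1 and TRBV29 lost it in 4 and 8 of 21 alternatives, among them, for both, leaving out luc NICD replicate 3, lucOS NICD replicate 1 or male replicate 1.

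**Figure D2:**
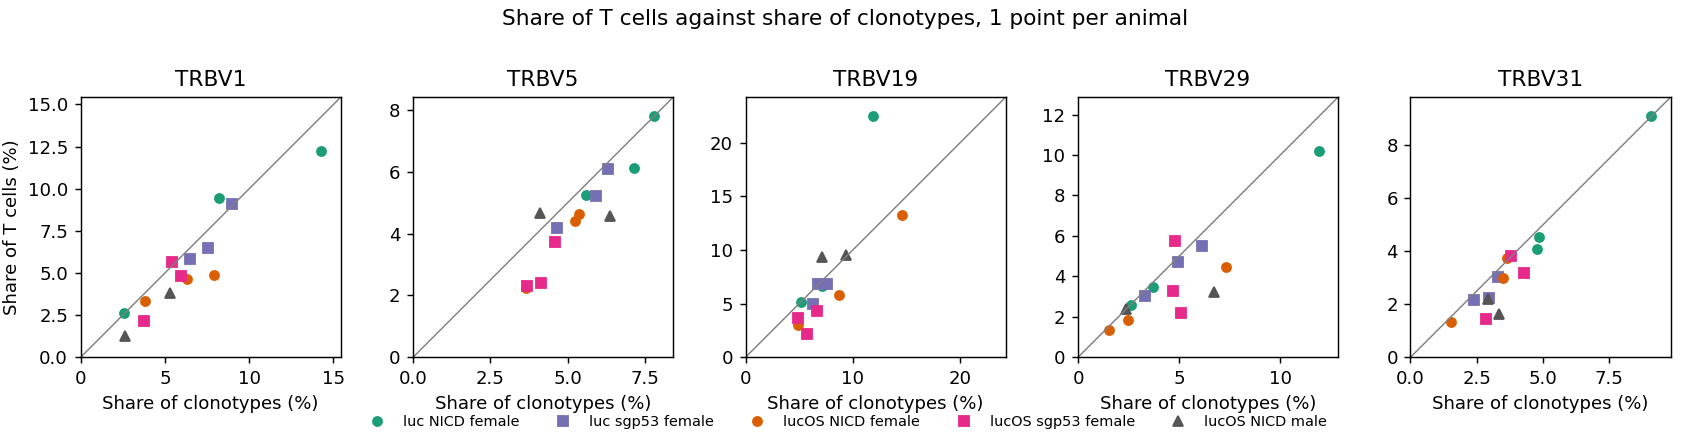
Share of T cells (percent) against share of clonotypes (percent), 1 panel per gene and 1 point per animal, with the line of equal shares. Most points of TRBV1, TRBV5, TRBV29 and TRBV31 lie below the line, and those of TRBV19 above it are luc NICD replicate 3, the 2 males and 1 luc sgp53 animal.

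Large clones, of at least 5 T cells, were fewer among these receptors than among the rest. They held 220 of 1597 cells (13.8%) in 21 clones, against 2081 of 6008 cells (34.6%) in 116 clones for all other TRBV genes. The share in large clones was lower than that of other T cells in 11 of 14 animals, higher in 1 and equal at 0 in 2. The animal where it was higher was luc NICD replicate 3, where the only large clone was the TRBV19 clone of 7 cells. By gene, 8.74% of TRBV1, 12.1% of TRBV5, 18.1% of TRBV19, 17.6% of TRBV29 and 11.0% of TRBV31 cells were in large clones. There were 1.20 cells per clonotype for TRBV1 and TRBV5, 1.26 for TRBV19 and TRBV31 and 1.28 for TRBV29, against 1.54 over all T cells. The other genes were not alike in the gap between shares of T cells and of clonotypes. Its mean was 4.61 ± 8.08 points for the entry naming both TRBV12-2 and TRBV13-2, but -0.808 ± 0.656 for TRBV10 and -0.549 ± 0.626 for TRBV2. A low share in large clones is thus not read as particular to the 5 genes.

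Of the 21 large clones, 20 (95.2%) lay in lucOS tumours, near the 104 of 116 (89.7%) of other TRBV genes. There were 12 in lucOS sgp53 females, 6 in lucOS NICD males and 2 in lucOS NICD females, with 1 in luc NICD and 0 in luc sgp53 females. In that order, the groups held 605, 254, 170, 132 and 436 cells of the 5 genes. A fixed cut of 5 cells depends on how many cells were sampled, and that part was not tested. The 436 cells of the 5 genes in luc sgp53 animals were thus all in clones under 5 cells, while 12 large clones of other genes stood in the same animals. TRBV5 had 6 large clones of 5 to 8 cells spread over 5 animals. TRBV29 had 3, of 25, 16 and 9 cells, all in the lucOS sgp53 animal with 2 libraries. Those 3 clones had 23, 9 and 5 cells among the 706 T cells of replicate 3, and 2, 7 and 4 among the 644 of replicate 4. Of the 3, only the largest took a widely different share in the 2 libraries of 1 animal. Together the 3 clones made up 50 of that animal's 79 TRBV29 cells. The TRBV31 clone of 11 cells in the same animal had 10 cells in replicate 3 and 1 in replicate 4.

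TRBV19 had 7 large clones in 4 animals, 4 of them in males. The clone of 28 cells was 28 of the 53 TRBV19 cells of male replicate 1, and 26 of its cells had an alpha chain, all TRAV9D-1 with TRAJ12. In male replicate 2, 3 large clones held 29 of 59 TRBV19 cells, led by a clone of 19 with TRAV6N-7 and TRAJ38. The TRBV1 clone of 25 cells was 25 of 47 TRBV1 cells in lucOS sgp53 replicate 2, with TRAV14-1 and TRAJ37 in all 18 cells that had an alpha chain.

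**Figure D3:**
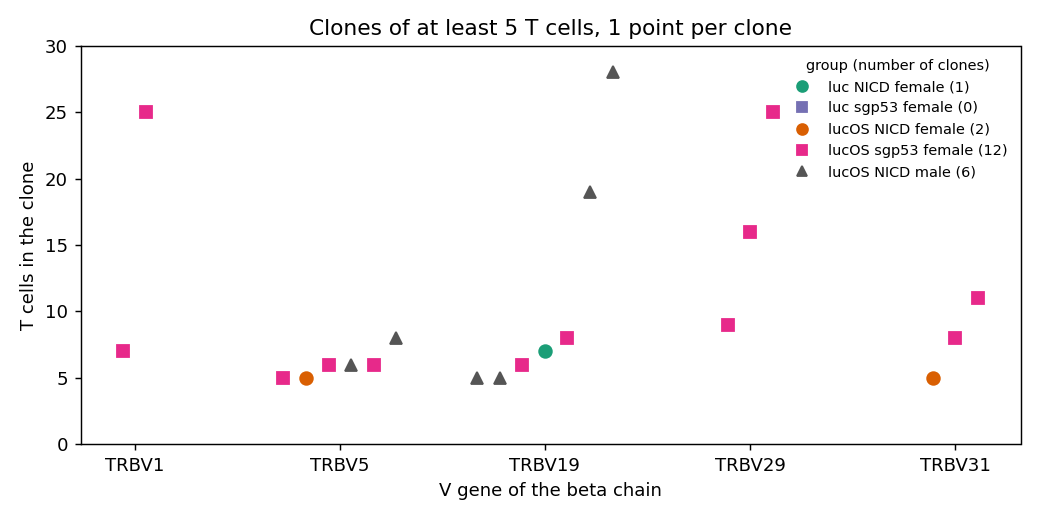
Number of T cells in each clone of at least 5 T cells, by V gene, with 1 point per clone, coloured by group. Of the 21 clones, 20 are in lucOS animals, against 104 of 116 for other TRBV genes, and the largest is a TRBV19 clone of 28 cells in a male.

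Few of these receptors recurred between animals. Of 1283 distinct nucleotide clonotypes, 4 (0.312%) were found in at least 2 animals, against 25 of 3627 (0.689%) for other TRBV genes; by amino acids, 13 of 1269 (1.02%) recurred, against 66 of 3545 (1.86%). TRBV1 held 6 of the 13. The TRBV29-TRBJ2-7 clonotype among the 4 rests on a barcode present in luc sgp53 replicates 2 and 3, with 158 reads in one and 37894 in the other. Its CDR3 and that of the TRBV1-TRBJ1-3 clonotype, with 1 cell in each of 2 animals, are printed because the rule on recurring clonotypes takes them.
TRBV29-TRBJ2-7: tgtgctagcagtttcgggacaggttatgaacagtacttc
TRBV1-TRBJ1-3: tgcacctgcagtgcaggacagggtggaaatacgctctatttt

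A TRBV1-TRBJ1-2 receptor recurred most widely, with the same CDR3 amino acids in 4 animals and 14 cells. These were 7 cells in lucOS sgp53 replicate 2, 4 in luc sgp53 replicate 1, 1 in luc sgp53 replicate 2 and 2 in the lucOS sgp53 animal with 2 libraries. The last animal had a second nucleotide form, and capitals mark the base that differs.
beta chain, first 3 animals: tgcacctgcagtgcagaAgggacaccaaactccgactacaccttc
beta chain, lucOS sgp53 replicates 3 and 4: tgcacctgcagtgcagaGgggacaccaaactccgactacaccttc
All 10 of these cells with an alpha chain carried TRAV5-4 or its near-identical copy TRAV5D-4, which counting may split, joined to TRAJ44. There were 3 nucleotide forms of that alpha CDR3, coding 2 amino acid sequences, and capitals mark the 2 positions that differ.
alpha chain, lucOS sgp53 replicate 2: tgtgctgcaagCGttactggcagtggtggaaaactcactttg
alpha chain, luc sgp53 replicate 1: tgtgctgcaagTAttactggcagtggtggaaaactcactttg
alpha chain, luc sgp53 replicate 2 and lucOS sgp53 replicates 3 and 4: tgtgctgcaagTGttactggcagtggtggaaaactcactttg
No other T cell (0 cells) had an alpha CDR3 with either of these amino acid sequences.

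The largest TRBV29 clone also recurred. Its TRBV29-TRBJ1-4 receptor had 25 cells in the lucOS sgp53 animal with 2 libraries, 2 in lucOS sgp53 replicate 2 and 2 in luc sgp53 replicate 1, the last with 3 other bases for the same amino acids.
beta chain, both lucOS sgp53 animals: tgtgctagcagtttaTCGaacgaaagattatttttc
beta chain, luc sgp53 replicate 1: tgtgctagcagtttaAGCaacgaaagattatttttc
In each of the 3 animals it was paired with TRAV12-2 and TRAJ30, with an alpha CDR3 identical in all 39 bases; 1 cell of luc sgp53 replicate 1 had a TRAV13-1 alpha chain instead.
alpha chain, all 3 animals: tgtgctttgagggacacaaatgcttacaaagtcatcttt

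Both of these receptors were seen in sgp53 animals and in neither NICD females nor NICD males. The sgp53 libraries held 262 TRBV1 and 212 TRBV29 cells from 6 animals, and the NICD libraries 104 and 72 from 8 animals, and no test of that split was made, since it was noticed in these data. Of the 13 recurring amino acid clonotypes, 8 had an alpha chain in at least 2 animals, and in 6 of these 8 the animals shared TRAV family and TRAJ. A pair of large TRBV19 clones, noticed after their values were seen, used 1 combination of genes, TRBV19-TRBJ2-7 with TRAV13-1-TRAJ52, without sharing a beta CDR3. They had 7 cells in luc NICD replicate 3 and 6 in the lucOS sgp53 animal with 2 libraries. Each beta CDR3 had 42 bases and each alpha CDR3 48, of which 4, in capitals, differed.
alpha chain, luc NICD replicate 3: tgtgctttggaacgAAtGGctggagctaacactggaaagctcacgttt
alpha chain, lucOS sgp53 replicates 3 and 4: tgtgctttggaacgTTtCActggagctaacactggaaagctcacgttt
Over all libraries, 9 cells in these 2 animals held that combination of 4 genes.

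Invariant alpha chains divided the 5 genes. The TRAV11-TRAJ18 chain of invariant natural killer T cells was in 127 T cells, of which 17 (13.4%) carried TRBV29, 11 TRBV1, 1 TRBV5, 1 TRBV31 and 0 TRBV19. The TRAV1-TRAJ33 chain of MAIT cells was in 128 T cells, of which 34 (26.6%) carried TRBV19, 7 TRBV5, 4 TRBV1, 2 TRBV29 and 1 TRBV31. The most frequent CDR3 of each chain in these receptors is printed in lower case throughout.
TRAV11-TRAJ18, 11 of 30 cells in 7 animals: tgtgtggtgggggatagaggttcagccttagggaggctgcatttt
TRAV1-TRAJ33, 38 of 48 cells in 9 animals: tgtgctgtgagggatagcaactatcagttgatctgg
All 30 chains of the first kind had 45 bases and all 48 of the second had 36.

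Within animals, the TRAV11-TRAJ18 share was 9.15% of TRBV29 cells and 1.41% of T cells with other TRBV genes (mean of 12 animals with at least 5 TRBV29 cells), a difference of 7.74 ± 12.4 points (SD), higher in 10 of 12 (two-sided exact sign-flip permutation test, Benjamini-Hochberg adjusted p = 0.0128). The extremes were luc NICD replicate 3 with 2 of 5 TRBV29 cells and male replicate 1 with 5 of 18, and without the former the difference was 4.80 points. Besides these, lucOS sgp53 replicate 1 had 3 of 42, and every other higher animal rested on 1 such cell. The smallest excess was 1.27% against 1.02%, in the lucOS sgp53 animal with 2 libraries. With TRB contigs of at least 3 UMIs it was 5.09 points. In TRBV19 the share was 0 of the 339 cells with an alpha chain (431 in all), which allows a share of up to 0.885% of them (3 counts). Over all cells of the gene the comparison was 0% against 2.13% of other T cells, lower in 13 of 13 animals (exact sign-flip permutation test, adjusted p = 0.00244). TRBV5, with 1 such cell among 298, was also lower, at 0.265% against 1.77% and in 12 of 13 animals (exact sign-flip permutation test, adjusted p = 0.00488). TRBV1, at 2.38% against 1.92%, and TRBV31, at 0.926% against 1.71%, missed the threshold, with adjusted p = 0.808 and 0.425 in the same exact test. The only TRBV31 cell with this chain was in male replicate 1. TRBV31 passed without that animal, at -1.55 points, and in animals with at least 10 of its cells, at -1.60 points. No such cell was left in either setting, which fixes the sign, so nothing is read from these calls. The chain is concentrated in a few TRBV genes, and 15 of 20 entries (75%) passed this test, so being below the rest is the common state. An animal with no such cell counts as lower however few its cells of the gene, so counts of lower animals are weak.

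The TRAV1-TRAJ33 share was 8.91% of TRBV19 cells and 1.59% of other T cells (mean of 13 animals), a difference of 7.32 ± 9.69 points, higher in 8 animals and lower in 3 (exact sign-flip permutation test, adjusted p = 0.0260). It reached 32.0% (8 of 25 cells) in lucOS NICD replicate 1, 25.5% (12 of 47) in luc sgp53 replicate 3 and 25.0% (5 of 20) in lucOS NICD replicate 2. These are the 3 animals richest in MAIT receptors of any V gene, at 5.56%, 7.67% and 8.61% of T cells. Without luc NICD replicate 1, luc sgp53 replicate 1, lucOS NICD replicate 2 or the lucOS sgp53 animal with 2 libraries, each in turn, the differences were 6.65, 7.54, 6.36 and 7.55 points and the adjusted p rose to 0.0521 in the exact sign-flip permutation test. With TRB contigs of at least 3 UMIs the difference was 6.42 points, at the same adjusted p in that exact test. The 34 cells were 32 clonotypes. TRBV1 was lower, at 0.586% against 2.21% (exact sign-flip permutation test, adjusted p = 0.0488), a call lost in 13 of 17 alternatives, 10 of which leave out an animal, with differences between -1.86 and -1.02 points. TRBV5, TRBV29 and TRBV31 did not pass, and 10 of 20 entries (50%) did. Only in lucOS NICD replicate 1 did TRBV29 (2 cells) or TRBV31 (1 cell) have this chain. Without that animal both genes passed as lower, each at -1.27 points (exact sign-flip permutation test, adjusted p = 0.00710). TRBV29, whose difference over all animals was 0.483 points, also passed as lower in animals with at least 10 of its cells, at -1.40 points (exact sign-flip permutation test, adjusted p = 0.0112). In both settings no such cell of the gene was left, so the difference could not be above that of no change. Nothing is read from these calls. Cells without any alpha contig were 27.0% of TRBV1, 19.1% of TRBV5, 21.3% of TRBV19, 24.3% of TRBV29 and 19.7% of TRBV31 cells, and none of the 5 passed the exact test against other T cells, where 1 of 20 entries (5%) did and the adjusted p of each of the 5 was 0.493.

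**Figure D4:**
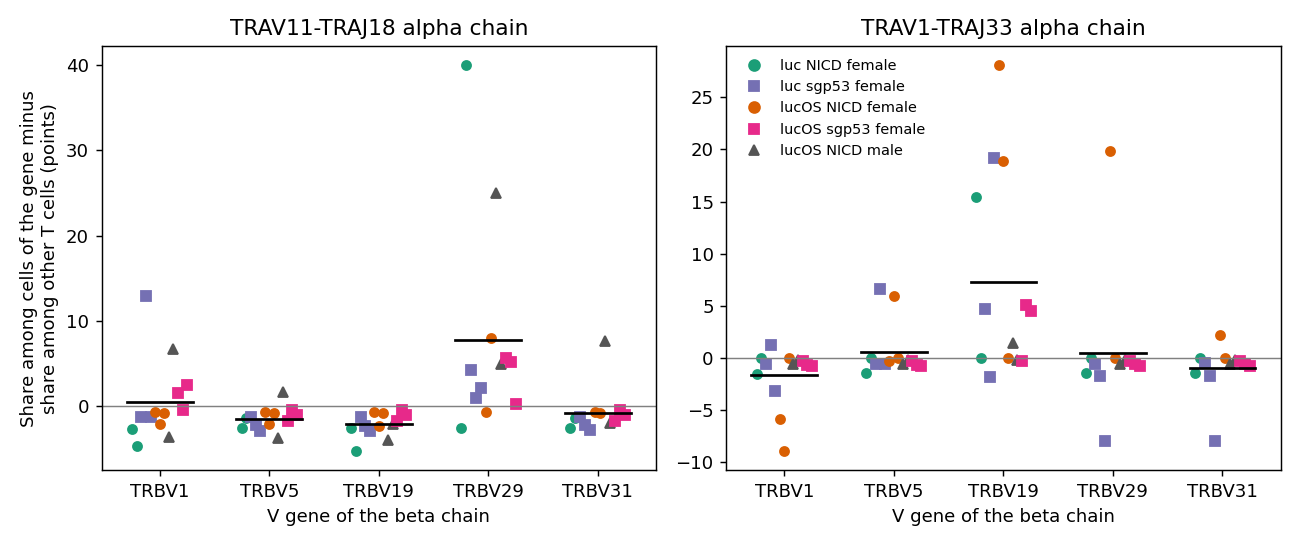
Share of cells with the TRAV11-TRAJ18 chain (left) and the TRAV1-TRAJ33 chain (right) among cells of each gene minus the share among other T cells of the animal, in percentage points; 1 point per animal with at least 5 cells of the gene, and a black bar at the mean. TRBV29 lies mostly above 0 on the left and TRBV19 reaches its highest values on the right.

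The CDR3 was longer in TRBV5 and shorter in TRBV29 clonotypes than in those of other genes. TRBV5 clonotypes averaged 43.8 bases against 41.5 for other clonotypes, longer by 2.32 ± 1.51 bases and in 13 of 13 animals (exact sign-flip permutation test, adjusted p = 0.00488). TRBV29 clonotypes averaged 40.7 against 41.7 bases, shorter by 1.04 ± 1.02 bases in 11 of 12 animals (difference -1.04, exact sign-flip permutation test, adjusted p = 0.0244). The V gene itself encodes the start of the CDR3, which is part of this length. TRBV1 at 0.98 bases longer, TRBV31 at -1.03 and TRBV19 at 0.26 did not pass, and 4 of 20 entries (20%) passed. TRBV1 passed without luc NICD replicate 3, at 1.29 bases, and TRBV31 without luc sgp53 replicate 1, at -1.24 bases.

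The choice of J cluster was lower in TRBJ2 for TRBV29, which used it in 56.1% of clonotypes against 68.3% in other genes, a difference of -12.3 ± 10.3 points, lower in 10 of 12 animals (exact sign-flip permutation test, adjusted p = 0.0293). That call did not hold without luc NICD replicate 3, lucOS NICD replicate 3, male replicate 1, or any of the 3 luc sgp53 or 3 lucOS sgp53 animals, nor with 2 other settings, at differences of -13.9 to -10.6 points and an adjusted p of at most 0.0684 in the exact test. TRBV31 used TRBJ2 in 57.1% against 69.1%, TRBV1 in 59.1% against 68.0%, TRBV19 in 61.3% against 67.6% and TRBV5 in 70.2% against 68.0%, and these 4 missed the threshold; over all entries 2 of 20 (10%) passed. Without barcodes of at least 2 TRB or 3 TRA contigs TRBV1 passed, at -10.04 points (exact sign-flip permutation test, adjusted p = 0.0423).

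By single segments, TRBJ2-7 was the most frequent partner of every one of the 5 genes, at 13.5% of TRBV31 to 20.6% of TRBV5 cells (mean of 14 animals), below the 23.9% to 24.7% of cells with other genes. The next partners were TRBJ1-5 for TRBV31, 12.04% against 2.38%, TRBJ2-5 for TRBV5, 20.5% against 13.5%, and TRBJ1-1 for TRBV1, 15.3% against 7.68%, and for TRBV29, 12.5% against 8.27%. TRBV19 was next joined to TRBJ2-1, at 12.97% against 12.2%. Among alpha chains, TRBV19 was paired most with TRAV1, at 12.1% against 2.19%, then TRAV12-2 at 8.48% and TRAV13-1 at 7.31%. TRBV29 was paired most with TRAV11 at 10.3%, then TRAV12D-3 at 9.004% and TRAV12-2 at 8.03%. In cells these were 17, 6 and 34 of 215, and 20 of the TRAV12-2 cells belonged to the largest TRBV29 clone. All these partner shares count T cells, not clonotypes, so large clones enter them. For TRBV1 the leading alpha gene was TRAV8-1, at 9.91% over animals but only 8 of 267 cells, then TRAV14-1 and TRAV7D-2. TRBV5 was led by TRAV3D-3 at 6.15%, then TRAV14D-2 and TRAV6-7-DV9. TRBV31 was led by TRAV6-5 at 9.52%, from 4 of 175 cells in 3 animals, then TRAV13N-4 and TRAV13D-2. Means over animals give weight to libraries with few cells, and several TRAV genes have near-identical D or N copies, so single alpha genes are uncertain.

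Across the 14 animals, which differ in depth and share no library, the share of TRBV5 went most closely with that of TRBV13-2 (Spearman's rho 0.76) and TRBV19 (0.57), and that of TRBV19 with TRBV5 (0.57) and TRBV13-2 (0.53). TRBV1 went with TRBV12-2 (0.42) and TRBV29 (0.38), TRBV29 with TRBV14 (0.45) and TRBV31 (0.42), and TRBV31 with TRBV2 (0.51) and TRBV29 (0.42). TRBV12-2 and TRBV13-2 are here the entries of those names alone, apart from the entry naming both. Shares of 1 library add up to a fixed total, so these values are descriptions.

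TRB contigs not flagged as productive, called nonproductive here, gave another view of the same genes. A V gene and a J gene had to be named, but no frame shift or stop was required. Incomplete contigs of working chains may thus be among them, and how many was not tested. The nonproductive contigs were examined after the other values had been seen. After counting each V gene, J gene and clonotype of its cell 1 time, 437 of 596 such contigs remained in 13 animals, with a median of 2 to 3 UMIs for the 5 genes. TRBV31 was the most frequent of 20 entries, at 11.6% ± 6.95 of nonproductive contigs against 3.72% of productive clonotypes, a difference of 7.83 ± 6.26 points, higher in 11 of 13 animals (exact sign-flip permutation test, adjusted p = 0.00732). It accounted for 52 of the 437 contigs. Its share was 0% of 4 contigs in lucOS NICD replicate 2, the lowest, and 22.2% of 9 in luc NICD replicate 2, the highest.

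TRBV29 stood at the other end, the least frequent of 20 entries, at 0.749% ± 1.32 against 4.27%, a difference of -3.52 ± 2.04 points, lower in 13 of 13 animals (exact sign-flip permutation test, adjusted p = 0.00488), with 6 of 437 contigs. Those were 2 each in luc sgp53 replicates 2 and 3, and 1 each in lucOS sgp53 replicate 1 and the lucOS sgp53 animal with 2 libraries. Every other animal had 0, which counts as lower however few its contigs. TRBV1 at 3.54% against 5.78%, TRBV5 at 4.11% against 5.19% and TRBV19 at 9.49% against 7.31% did not pass, with adjusted p = 0.0954, 0.432 and 0.432 in the exact test; 9 of 20 entries (45%) passed. TRBV1 passed without luc sgp53 replicate 3 or the lucOS sgp53 animal with 2 libraries, at -2.77 and -2.71 points, and with every nonproductive contig counted, at -2.66 points (exact sign-flip permutation test, adjusted p = 0.0351). Nonproductive contigs were counted only in cells that also had a productive one, and those of other cells were left out. How far transcript decay sets which ones are seen was not tested.

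**Figure D5:**
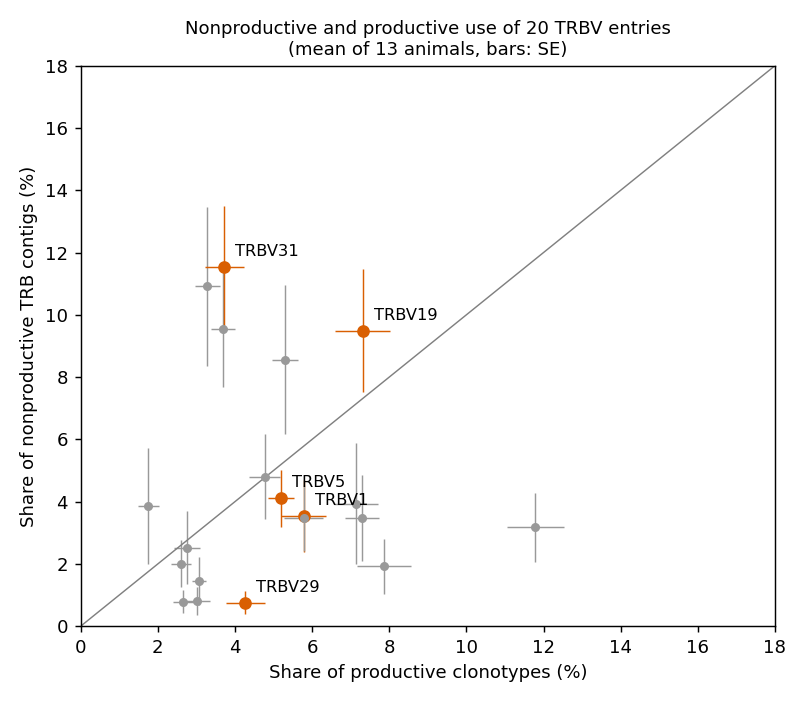
Share of nonproductive TRB contigs (percent) against share of productive clonotypes (percent) for 20 TRBV entries, mean of 13 animals with SE bars; the 5 genes are orange and named, other entries grey, and the line marks equal shares. TRBV31 lies far above the line and TRBV29 far below it.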

How the data were processed

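The authors deposited, for each of the 15 TCR libraries, a table of assembled contigs with counts of UMIs and reads per contig. Per the submitters' processing notes, the tools were Cell Ranger and Seurat and the build mm10, with no role or version given in the sources used here. Bulk RNA-seq levels of these segments were not analysed here.

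Cell barcodes with a productive, high-confidence TRB contig were taken as T cells, by the contig of most UMIs. At most 7.51% of a library's T cells had a further TRB contig. A clonotype was V gene, J gene and CDR3 nucleotides within an animal. Animals were the unit, and shares of the 2 libraries of 1 animal were averaged. The 20 TRBV entries that averaged at least 1% of T cells were tested together with two-sided exact permutation tests over animals, adjusted by Benjamini-Hochberg, called under 0.05; p-values measure the spread between animals. Wilson intervals are at 95% and, like limits on 0 counts, cover counting error only, since UMIs within a cell are not independent cells. The permutation tests between groups were checked on simulated shares without clones and without spread between animals beyond counting. The sign-flip test was checked on simulated normal values only, not on shares with many zeros. Alternatives changed doublets, UMI minimum, library size, clonotype definition, males, invariant cells and single animals. The software was scipy 1.17.1, pandas 2.3.3 and numpy 2.4.6 under Python 3.11.15. The naming rule took the 5 genes, for each its 3 leading TRAV and 2 leading TRBJ genes, its largest clone and 2 most alike TRBV genes, and at most 6 clonotypes found in at least 2 animals. The members, lists and rules were chosen with earlier results of these data known. Sequences come from the deposited contigs; positions come from RefSeq, in which all 5 genes matched by symbol.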

Additional observations from a re-analysis of the deposited data

Results flagged for a closer look

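Within females grouped by construct or by driver, 6 animals each, 6 of 40 sets of shares held an animal whose gap to its nearest neighbour was large for the group's range (Dixon's test at 95%, which flags about 1 in 20 by chance). For TRBV19, luc NICD replicate 3 stood at 22.4% of T cells and 11.9% of clonotypes among luc females, and lucOS NICD replicate 2 at 13.2% of T cells among lucOS females. For TRBV31, luc NICD replicate 2 stood at 9.09% of T cells and 9.09% of clonotypes among luc females. For TRBV29, luc NICD replicate 3 stood at 10.2% of T cells among NICD females. These libraries held 49, 151 and 77 T cells. The rule names these shares, so the flags are descriptions.

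The difference in TRBV31 clonotype share between lucOS and luc was lower by 4.09 points in NICD than in sgp53 females (interaction -4.09). It was picked out by its own unadjusted p and did not pass the correction. The rule names this share, so the value is a description and nothing is read from the test.

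Outside called cells, 12019 productive TRB contigs were listed, with a median of 1 UMI, and 2325 of them (19.3%) carried the 5 genes, against 21.0% of T cells. TRBV19 was at 3.50% there and 5.67% in T cells, and TRBV1 at 5.36% and 4.81%.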

How the results depend on the processing

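Over the 5 genes and the counts of TRBV entries called, TRBV5, TRBV29 and TRBV31 kept their direction in CDR3 length, TRBJ2 share, the gap between shares of T cells and of clonotypes and, for TRBV29 and TRBV31, nonproductive use, under every alternative run. The calls for TRBV5 CDR3 length, TRBV29 CDR3 length, the TRAV11-TRAJ18 shares of TRBV5, TRBV19 and TRBV29 and the nonproductive shares of TRBV29 and TRBV31 also stayed past the threshold in each. The cause of a change was not tested in any case below.

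Keeping the males, the TRBV5 share of T cells, lucOS minus luc, was -2.31 points, given as a description, 2 entries were called for lucOS against luc in shares of T cells, and for NICD against sgp53 1 in T cells and 2 in clonotypes. For the TRBV19 share of clonotypes, lucOS minus luc, small values of either sign came out: -0.114 with males, -0.0738 with TRB contigs of at least 3 UMIs and -0.324 without TRAV1-TRAJ33 cells. For TRBV29 in NICD minus sgp53 the clonotype value turned to -0.138 without doubtful barcodes, -0.176 at 3 UMIs, -1.07 in libraries of at least 100 T cells and -0.545 without TRAV11-TRAJ18 cells, and its lucOS minus luc value to 0.0482 in libraries of at least 100 T cells. In those libraries the gap between T cell and clonotype shares was -0.917 points for TRBV1 and -0.986 for TRBV29, both no longer called, and 5 entries were called. At 49 T cells per library the TRBV19 gap was 0.380. At 3 UMIs, 1 entry was called for TRBJ2. With at least 10 cells or clonotypes per animal, 2 entries were called for CDR3 length. For missing alpha chains 0 were called, where 1 had been called by the main test. TRBV29 turned to -1.40 points in TRAV1-TRAJ33 share and passed (exact sign-flip permutation test, adjusted p = 0.0112). No such TRBV29 cell was left there, so nothing is read from that call. Counting every nonproductive contig gave 0.434 points for TRBV5 and -0.431 for TRBV19.

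Leaving out each animal in turn, NICD minus sgp53 ran from -0.539 to 1.87 points for TRBV1 and from -1.28 to 0.618 for TRBV29 in T cells, and from -0.649 to 2.27 and from -1.36 to 0.969 in clonotypes. In clonotypes, lucOS minus luc ran from -3.94 to -1.02 for TRBV1, -2.10 to -1.51 for TRBV5, -1.18 to 1.25 for TRBV19 and -2.01 to 0.332 for TRBV29, with 0 to 3 entries called, the 3 without luc NICD replicate 2; the rule names these shares, so nothing is read from their calls. The gap between T cell and clonotype shares ran from -1.10 to -0.767 for TRBV1, -1.04 to 0.0425 for TRBV19 and -1.12 to -0.773 for TRBV29, with 5 to 9 entries called. For TRBJ2, 1 to 2 entries were called. Without lucOS NICD replicate 1, the TRBV29 difference in TRAV1-TRAJ33 share was -1.27 points and passed (exact sign-flip permutation test, adjusted p = 0.00710). No such TRBV29 cell was left there, so nothing is read from that call either. The TRAV11-TRAJ18 difference of TRBV1 ran from -0.578 without luc sgp53 replicate 2 to 0.882, and was -0.0634 without male replicate 2.

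No paired analysis was possible because replicate numbers follow deposit order and pair no animals. The settings intended for bulk RNA-seq were not run. Depth limits the small libraries most: with 49 to 151 T cells in 3 NICD libraries, a gene rests there on 2 to 20 cells.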
